A study of Mus musculus with 40 samples.

Results

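In white preadipocytes on their way to brown-like adipocytes, 7370 of 169358 H3K27ac regions had a peak in 3 of 3 wild-type (WT) libraries at day 6 and in 0 of 3 libraries of cells without HMGN1 and HMGN2 (double knockout, DKO). The members were chosen by these measured day 6 calls, so the day 6 contrast is a description and was not tested. Merged regions were built from the 24 peak lists by uniting peaks that share 1 bp or more, and a library called a region when one of its peaks fell there. The day 6 calls were met by 7705 regions, which were 4.55% of all merged regions, and 335 of them were left out as day 9 only regions, with a peak in all 6 day 9 libraries and no day 0 library. The reverse pattern, 3 of 3 DKO and 0 of 3 WT libraries at day 6, was found in 66 regions.

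The study asked how the loss of these proteins affects the browning of white fat cells. Preadipocytes came from the inguinal white fat of adult C57BL/6 mice that were either wild type or Hmgn1-/- and Hmgn2-/-, and were grown on collagen. Both genotypes were given the same induction medium of insulin, dexamethasone, IBMX, T3 and rosiglitazone, followed by maintenance medium of insulin and T3. H3K27ac was profiled by ChIP-seq in untreated preadipocytes (day 0), in differentiating cells (days 3 and 6) and in brown-like adipocytes (day 9), with 3 libraries for each of the 8 groups. The cells are primary cultures that may hold other cell types of the fat depot, and the study calls its H3K27ac replicates biological, but the labels do not say whether they came from separate cultures or mice.

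H3K27ac is an acetyl group on lysine of histone H3 that marks active promoters and enhancers. HMGN1 and HMGN2 are small proteins that bind nucleosomes throughout the genome and loosen compact chromatin. During adipogenesis, many enhancers of stromal genes lose the mark while enhancers of lipid genes, bound by PPARG and C/EBP factors, gain it. A peak caller finds a region only where reads pass a threshold, so a missing call is not a measured absence of the mark.

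Sequence is shown for 5 of the strongest members that overlap no exon, to let their base composition and motifs be read directly. Each line gives 100 bp on either side of the strongest WT day 6 summit on the plus strand of GRCm38 (mm10), taken from the reference assembly. Capitals mark a TEAD motif (GGAATG) or a RUNX motif (TGTGGT) on either strand.
Downstream of Galnt9, chr5:110629498-110629698: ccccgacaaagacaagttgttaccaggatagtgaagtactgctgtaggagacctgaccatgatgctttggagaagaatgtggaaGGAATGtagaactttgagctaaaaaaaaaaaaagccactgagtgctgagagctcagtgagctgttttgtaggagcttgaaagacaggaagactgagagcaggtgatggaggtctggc
Near Prtg, chr9:72797284-72797484: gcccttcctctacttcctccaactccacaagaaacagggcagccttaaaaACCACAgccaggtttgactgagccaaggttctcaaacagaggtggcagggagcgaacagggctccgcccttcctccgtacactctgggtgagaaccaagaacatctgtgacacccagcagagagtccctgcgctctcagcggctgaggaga
Near Fbrsl1, chr5:110494109-110494309: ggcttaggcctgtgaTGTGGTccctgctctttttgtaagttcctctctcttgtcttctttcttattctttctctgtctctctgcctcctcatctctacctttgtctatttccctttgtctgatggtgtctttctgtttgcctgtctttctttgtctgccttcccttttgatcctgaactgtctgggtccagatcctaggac
Far from Nmur2, chr11:56290456-56290656: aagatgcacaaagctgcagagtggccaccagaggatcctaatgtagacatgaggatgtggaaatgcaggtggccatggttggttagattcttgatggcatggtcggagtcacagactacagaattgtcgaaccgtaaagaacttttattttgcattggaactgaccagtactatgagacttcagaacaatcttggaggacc
Creb3l1 intron, chr2:92016829-92017029: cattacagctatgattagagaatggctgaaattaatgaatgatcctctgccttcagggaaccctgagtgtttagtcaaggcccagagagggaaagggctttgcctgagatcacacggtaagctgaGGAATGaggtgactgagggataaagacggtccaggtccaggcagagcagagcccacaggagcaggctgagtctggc

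The window downstream of Galnt9, with a TEAD motif, belongs to chr5:110628629-110631050, the member with the highest lowest −log10 q over the 3 WT day 6 libraries (29.7). Here q is the false discovery rate that the authors' peak caller gave each peak. Of the windows shown, those near Prtg and Fbrsl1 hold a RUNX motif, that of Creb3l1 holds a TEAD motif, and the window on chromosome 11 holds none of the 8 motifs searched. The 5 windows had between 45.3% and 56.7% G and C.

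Members were weaker than the middle of the regions called at WT day 6, and far weaker than regions called in both genotypes. The median −log10 q of the members was 7.12, 6.85 and 7.56 in the 3 WT day 6 libraries. Regions called in all 6 libraries of day 6, which are called held regions here, had medians of 29.4, 29.0 and 33.7. In reads, the median at the summit of a member was 16, 15 and 17, against 39, 37 and 42 in held regions, as recovered from the deposited fold and p of each peak. The members' median lay at the 37.0th ± 2.12 percentile (SD, n = 3) of all regions called in the same library. Those regions had a median −log10 q of 9.43, 9.31 and 9.58, and a median of 19 summit reads in each library. Of the 41790 regions called in 3 of 3 WT day 6 libraries, members were 49.1% of the 6746 whose lowest −log10 q was under 5, and 0.0547% (7) of the 12795 at 20 or more.

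The rule has a sharp edge on a graded quantity. Just outside it lay 6005 regions with 3 WT calls and 1 DKO call, whose median −log10 q in WT was 8.57, and 8757 regions with 2 WT calls and no DKO call, whose median was 5.71. For the 7705 regions that met the day 6 calls it was 7.12. The lowest −log10 q in WT was higher the more DKO libraries held a peak, from a median of 5.30 at 0 libraries to 6.38 at 1, 8.35 at 2 and 24.9 at 3.

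**Figure D1:**
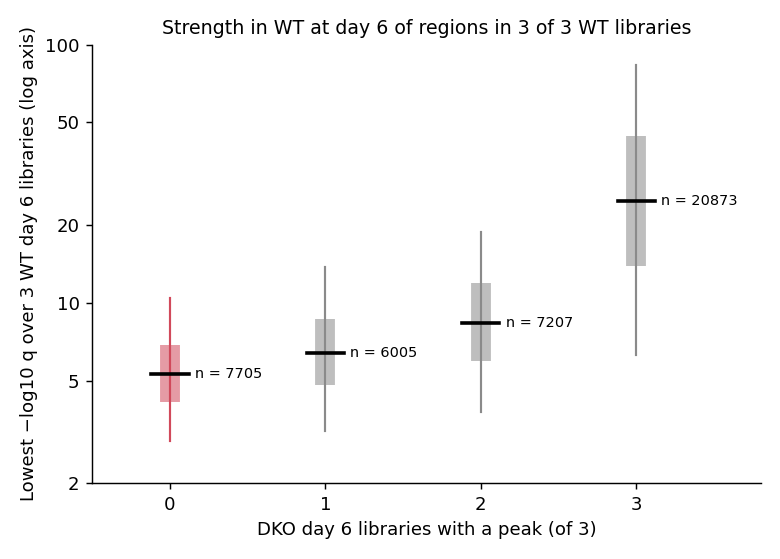
Lowest −log10 q over the 3 WT day 6 libraries (log axis) of regions called in 3 of 3 of them, by the number of DKO day 6 libraries with a peak. Black lines are medians, boxes the quartiles and thin lines the 5th to 95th percentile of regions; the 7705 regions with no DKO peak (red) have a median of 5.30, and the 20873 with 3 a median of 24.9.

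The day 6 lists differed in length. The DKO day 6 lists held 74867, 71869 and 47448 peaks, and the WT day 6 lists 102234, 98503 and 105511. With 40000 peaks taken from every library, 1415 regions met the day 6 calls and 392 met the reverse, in place of 7705 and 66. In addition, 98.2% of members passed the strictest DKO limit (−log10 p of 4.11) in all 3 WT libraries. The part of list length in the members was not tested. In bulk cells, fewer cells of a type with the mark and less mark per cell cannot be told apart.

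Across the other libraries of the series, the lists held 60672 to 115923 peaks. WT day 3 replicate 3 was shallow, with a median background of 1.05 reads at its peaks, the lowest of all libraries, and DKO day 0 replicate 2 had no peak under 440 bp, against narrowest peaks of 155 to 165 bp elsewhere. The shares called and the counts per genotype at days 0 and 3 are therefore given with and without these libraries. At day 6, the starts of 4 of 4 adipocyte markers (Adipoq, Fabp4, Plin1 and Pparg) had a peak in every library of both genotypes. Of 5 preadipocyte markers, 4, 4 and 2 had a peak at their start in WT and 2, 1 and 1 in DKO. Of 10 immune markers, 7, 6 and 7 had one in WT and 7, 8 and 6 in DKO. Of 8 endothelial markers 1 or 2 had one, of 7 mesothelial and epithelial markers 1, and of 6 Schwann cell markers 1 or 2, in each day 6 library. The part of other cells in the members was not tested.

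The knocked-out genes gave opposite pictures. At Hmgn2 there were 2 merged regions, both of them members, at chr4:133966170-133967282 and chr4:133967641-133968684. All 12 WT libraries called both and no DKO library called either, and the first had 16 to 52 summit reads in WT, with a median of 37.5. At Hmgn1, the region over the start, chr16:96125983-96129087, had a peak in every library of either genotype, with 25 to 56 summit reads in WT and 32 to 92 in DKO, and so was no member. Whether the Hmgn1 peak lies outside the deleted part was not analysed here, so it does not check the labels.

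Outside day 6, the DKO cells held a large share of the members, and the gap to WT was widest at day 3. Of these days only day 3 was untouched by the rule, which left out 335 regions by their calls at days 0 and 9. At day 0 a peak was found at 46.9%, 54.4% and 50.4% of members in the WT libraries and at 40.8%, 49.5% and 49.6% in the DKO libraries. The groups overlapped, with means of 50.6% ± 3.75 and 46.6% ± 5.05 (SD, n = 3 each), and without DKO day 0 replicate 2 the difference was 5.38 percentage points in place of 3.94. In members chosen anew with 40000 peaks per library it was 0.613, and with 20000 it was -2.48, so no direction holds at day 0. Over all merged regions the means were 31.4% and 31.5%, and over held regions 84.7% and 84.9%.

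At day 3 the WT libraries called 66.1%, 69.4% and 36.6% of members and the DKO libraries 25.1%, 45.1% and 31.9%. The shallow WT replicate 3 fell between the DKO values, and the other WT libraries lay above all DKO libraries. The lists differed in length here too, with 91567, 95852 and 68629 peaks in WT and 64777, 82585 and 69105 in DKO. The part of list length in the day 3 gap was not tested. The means were 57.3% ± 18.1 and 34% ± 10.1, which was 1.69 times as many calls in WT. Without WT day 3 replicate 3 the WT mean was 67.7% and the difference 33.7 percentage points in place of 23.3. In members chosen anew at each setting, the difference was 12.1 with replicate 1 of every group left out (13008 members). It was 16.2 with 40000 peaks per library (1360 members) and 15.4 with 20000 (551 members). Over all merged regions the ratio of WT to DKO calls at day 3 was 1.28, with overlapping groups, and over regions called in 3 of 3 WT and 1 or 2 of 3 DKO libraries at day 6 (partly held regions) it was 1.24. Partly held regions mostly lacked a peak in 1 library. DKO day 6 replicates 1 and 2 called 72.7% and 72.8% of them, and replicate 3, with the shortest list, 9.09%.

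At day 9 the share of members called was similar in both genotypes. The WT libraries called 54.4%, 71.0% and 68.6% of them and the DKO libraries 69.7%, 65.1% and 63.7%. The means were 64.7% ± 8.95 and 66.2% ± 3.14, and the groups overlapped. Over all merged regions at day 9, DKO libraries called more, 39.7% ± 1.95 against 34.4% ± 4.33, without overlap. With 40000 peaks from each library the members found at that setting had more calls in WT at day 9, 57.7% ± 3.77 against 49.0% ± 1.95, so the near equality at day 9 did not hold with lists of equal length.

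**Figure D2:**
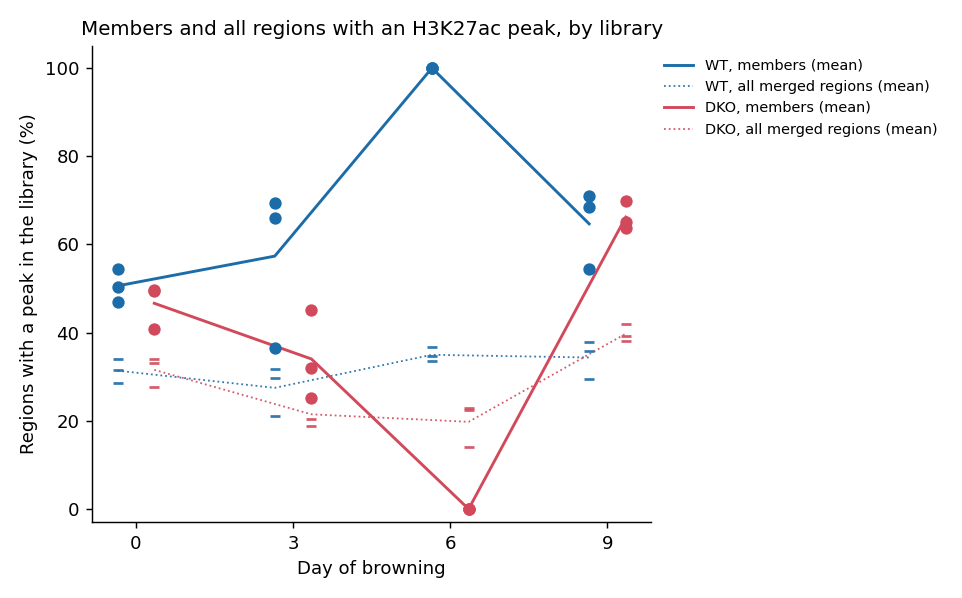
Percent of the 7370 members (circles) and of all 169358 merged regions (dashes) with a peak in each library, by day, with lines through the means of 3 libraries (WT blue, DKO red). The values at day 6 are fixed by the rule; the DKO means run from 46.6% at day 0 through 34% at day 3 to 66.2% at day 9.

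A region was counted as held by a genotype at a day when at least 2 of its 3 libraries had a peak. The number held by WT was 3689 at day 0 (50.1%), 4487 at day 3 (60.9%) and 4882 at day 9 (66.2%). DKO held 3394 (46.1%), 2367 (32.1%) and 5002 (67.9%). Member by member, WT alone held 814 members (11%) at day 0, beside 4.92% of all merged regions, and DKO alone held 519 (7.04%), beside 5.54%. At day 3 WT alone held 2354 members (31.9%), beside 7.36% of all merged regions, and DKO alone 234 (3.18%), beside 1.61%. At day 9 WT alone held 823 (11.2%), beside 4.15%, and DKO alone 943 (12.8%), beside 9.27%. Without WT day 3 replicate 3, with both remaining libraries needed, WT alone held 2115 members (28.7%) at day 3, beside 6.35%, and DKO alone 308 (4.18%), beside 1.92%. Without DKO day 0 replicate 2, WT alone held 1363 (18.5%) at day 0, beside 7.66%, and DKO alone 272 (3.69%), beside 2.79%.

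The commonest course in WT was presence at all 3 other days, seen for 2549 members (34.6%), against 1489 (20.2%) in DKO. Over all merged regions these shares were 17.5% and 15.7%, and over partly held regions 53.4% and 45.3%. In DKO the commonest course was presence at day 9 alone, 1631 members (22.1%) against 802 (10.9%) in WT. The rule lowers both counts by leaving out day 9 only regions, and with those kept in they were 1874 (24.3%) and 958 (12.4%). Presence at none of the 3 days was nearly as common in DKO, 1616 members (21.9%). Presence at day 9 and not day 0, with or without day 3, was more frequent in DKO in every set, not only in members. Over all merged regions it was 15.7% in DKO against 11.2% in WT. Over partly held regions it was 31.8% against 27.6%, and over held regions 14.7% against 14.1%. A gap, with a peak at days 0 and 9 and none at day 3, was seen in DKO at 1407 members (19.1%) and in WT at 564 (7.65%). Over all merged regions the gap was also the more frequent in DKO, 5.12% against 2.68% in WT, as it was over partly held regions (14.1% against 4.67%) and held regions (2.69% against 0.997%). Of the 3394 members that DKO held at day 0, 2896 were held again at day 9. Of the 3689 that WT held at day 0, 2549 were held at days 3 and 9, and a further 564 at day 9 but not day 3. DKO held 1616 members (21.9%) at none of the 3 days and WT 1276 (17.3%). Over all merged regions these shares were 54.0% in DKO and 57.4% in WT, and over partly held regions 5.09% and 6.94%. A peak in no library other than the 3 of WT day 6 was found for 183 members (2.48%). In all, 614 members (8.33%) had no peak in any of the 12 DKO libraries, and 1076 (14.6%) had one in all 12 WT libraries.

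**Figure D3:**
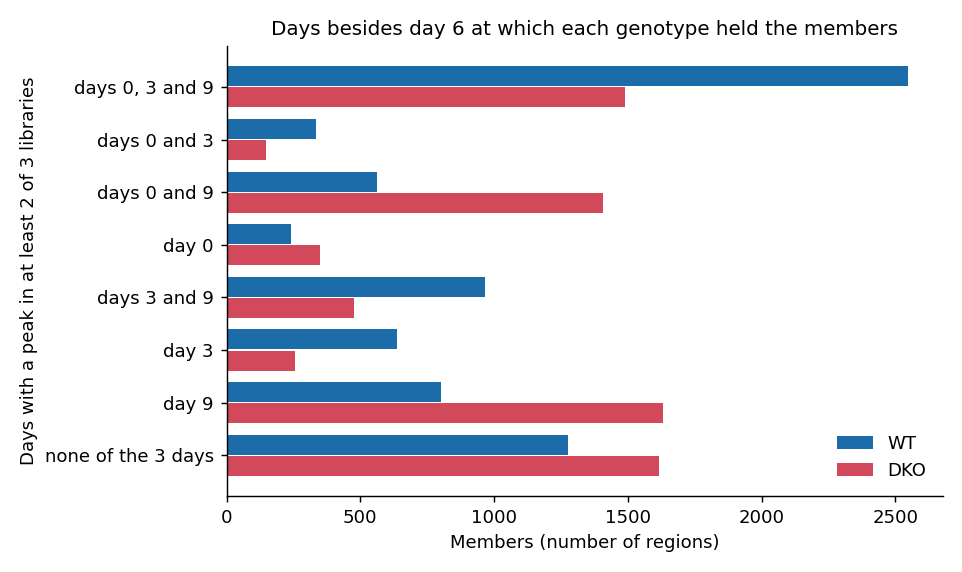
Number of the 7370 members by the days besides day 6 at which a genotype had a peak in at least 2 of 3 libraries (WT blue, DKO red). WT has 2549 members at all 3 days against 1489 in DKO, and DKO has 1407 members at days 0 and 9 with none at day 3 against 564 in WT.

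By the strict pattern of 3 of 3 libraries of a genotype and 0 of 3 of the other, the members again leaned to WT at day 3. At day 3, 371 members (5.03%) had the WT pattern, beside 0.9% of all merged regions, and 7 (0.095%) the DKO pattern, beside 0.098%. Of partly held regions 3.03% had the WT pattern at day 3. Without WT day 3 replicate 3 the WT pattern was seen in 1054 members (14.3%, beside 3.29%) and the DKO pattern in 8 (0.109%, beside 0.11%). At day 0 the WT pattern was seen in 111 members (1.51%, beside 0.594%) and the DKO pattern in 63 (0.855%, beside 0.745%), and without DKO day 0 replicate 2 in 213 (2.89%, beside 1.0%) and 88 (1.19%, beside 1.26%). At day 9 it was seen in 118 (1.6%, beside 0.386%) and the DKO pattern in 143 (1.94%, beside 1.46%).

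Single regions were tested over days 0, 3 and 9 by counting their calls per genotype and permuting genotype within each day (exact, two-sided), for the 60266 regions called in 3 to 15 of the 18 libraries. Of the members 5407 could be tested. After Benjamini-Hochberg adjustment over all regions 0 passed in either direction, members or not, and the smallest adjusted p was 0.999. The smallest p that the design allows is 0.00025, reached by 13 regions, 7 of them members, where 302 regions would have been needed. At an unadjusted p under 0.05, 196 members (3.62%) were called more often in WT, beside 1.09% of all regions tested, and 10 (0.185%) more often in DKO, beside 0.501%. The design can thus not single out a member, and the shares given here describe the members as a group.

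Where members were called at another day, their median strength again lay below the middle of the library, with the lowest rank at day 3. The median member peak lay at percentile 42.9 ± 2.06 of its library in WT and 40.6 ± 3.25 in DKO at day 0, and at 41.3 ± 3.88 and 41.7 ± 1.35 at day 9 (SD, n = 3 each). At day 3 it lay at 33.8 ± 7.23 in WT and 26.2 ± 3.71 in DKO, where the groups overlapped through the shallow WT library. In the 765 members called in all 6 libraries of day 3, the median summit reads were 21, 22 and 11 in WT, the last in the shallow library, and 16, 18 and 16 in DKO. Held regions differed in the same way at day 3, with 39, 39 and 20 reads in WT and 29, 33 and 29 in DKO. At day 9, the 2361 members called in all 6 libraries had 18, 21 and 20 reads in WT and 22, 19 and 18 in DKO.

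Strength at WT day 6 went with presence elsewhere. The 439 members (5.96%) with a lowest −log10 q of at least 10 were called by DKO at 66.2% ± 5.32 at day 0, 62.2% ± 11.5 at day 3 and 85.2% ± 1.39 at day 9. The 3312 members under 5 were called by DKO at 39.6% ± 4.94, 25.1% ± 9.29 and 58.7% ± 3.53. WT called the stronger members at 75% ± 2.72, 85.2% ± 13.1 and 87.6% ± 6.09 at the same days. Members that were stronger in WT at day 6 thus had more calls in both genotypes at each of these days.

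Most members lay away from gene starts. By the place of the summit in GENCODE M21, 3521 members (47.8%) were intronic, 2804 (38%) intergenic, 296 (4.02%) exonic and 749 (10.2%) within 1 kb of a transcript start. Of held regions 51.8% were within 1 kb of a start, of partly held regions 16.5%, and of all merged regions 15.7%. The median member was 895 bp wide, against 2417 bp for held regions and 428 bp for all merged regions. At day 9 DKO called 74.9% ± 3.37 of members at starts and 61.9% ± 2.43 of intergenic members. WT had the same order, with 69.6% ± 7.58 and 63.4% ± 8.93.

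**Figure D4:**
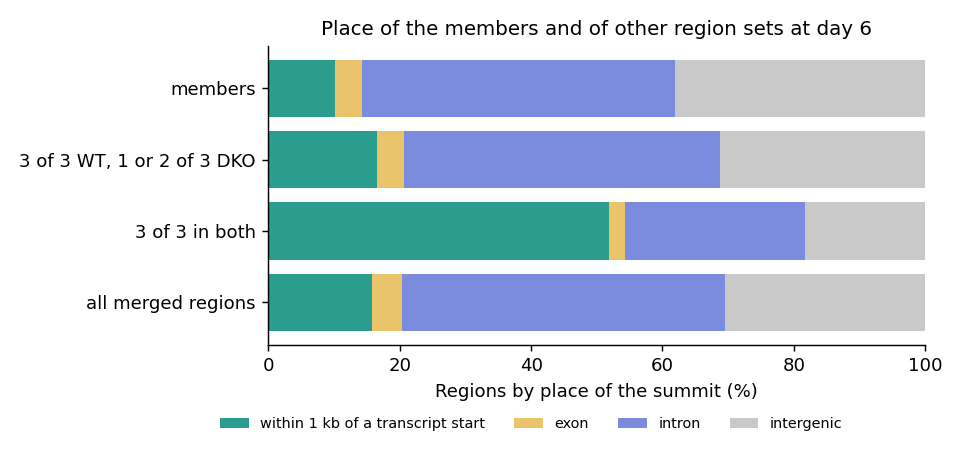
Percent of regions in each set by the place of the summit: within 1 kb of a transcript start (green), in an exon (yellow), in an intron (blue) or between genes (grey). Members have 10.2% at starts, against 51.8% of held regions, those with a peak in all 6 day 6 libraries.

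Most members had no other member nearby. The nearest DKO day 6 peak was at a median of 4.74 kb, with quartiles of 0.916 kb and 19.3 kb, and 1908 members (25.9%) had one within 1 kb. Those 1908 were called by DKO at day 0 in 33.6% ± 4.78, against 50.1% ± 4.76 of the 2620 members more than 10 kb from any, and WT showed the same split, 37.3% ± 3.28 against 54.9% ± 3.93. Another member lay within 10 kb of 2102 members (28.5%), while 71.6% of regions called in 3 of 3 WT day 6 libraries had another such region that near, in a set that is larger. By chromosome, members were between 13.4% (chromosome 19) and 20.8% (chromosome 13) of the regions called in 3 of 3 WT day 6 libraries on the autosomes, and 17.7% on chromosome X.

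The members were poorer in G and C than held regions. The median share of G and C within 100 bp on either side of the summit was 46.8% in members and 53.2% in held regions, but away from starts 46.3% and 48.8%. AP-1 (TGANTCA, the site of FOS and JUN factors) was found in 5.74% of members, 3.91% of held regions and 5.78% of all merged regions. Away from starts these shares were 5.95%, 5.00% and 6.10%. Thus the higher AP-1 share of members than of held regions, 1.47 times, came to 1.19 times away from starts. Within 100 bp the members were close to all merged regions, but within 200 bp on either side AP-1 was found in 15.8% of members and 13.8% of all merged regions, and away from starts in 16.6% and 14.6%. Partly held regions away from starts had it in 16.7% within 200 bp and 5.95% within 100 bp, close to the members.

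All 8 motifs were searched on both strands. Within 100 bp and away from starts, C/EBP (TTGCNNAA) was found in 7.70% of members, 6.69% of held regions and 7.66% of all merged regions. TEAD was found in 11.9%, 12.1% and 11.9%, and RUNX in 15.4%, 15.1% and 15.6%. The longer motifs were rare, with the PPAR-RXR element (AGGNCANAGGNCA) in 26 members (0.353%), the glucocorticoid response element (GNACANNNTGTNC) in 25 (0.339%), EBF (TCCCNNGGGA) in 37 (0.502%) and NFI (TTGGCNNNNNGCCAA) in 1. In all merged regions their shares were 0.430%, 0.412%, 0.589% and 0.0136%. A match to letters is not a bound site, and the motifs may overlap in a window.

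The strongest members included some that DKO never held and many that it held at other days. The region chr5:110628629-110631050 had 36, 48 and 48 summit reads in WT at day 6. In DKO it was called in 2 of 3 libraries at day 0, 0 at day 3 and 3 at day 9, the last with 17, 18 and 20 reads. It lies between genes, 23.8 kb from the start of Noc4l. Another 2 named members lie on the same stretch of chromosome 5. One, chr5:110494023-110495125, 45.7 kb from the start of Fbrsl1, had 37, 36 and 44 reads in WT at day 6 and was called in 2, 2 and 3 DKO libraries at days 0, 3 and 9. The other, chr5:110541279-110543109, is 2.90 kb from the start of Galnt9, a gene for an enzyme that starts O-linked glycan chains, and had a peak in every WT and no DKO library, with 36, 46 and 35 reads in WT at day 6.

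Away from chromosome 5, chr14:43898269-43898608 lies in an intron of an annotated gene, outside the span of any protein-coding gene. It had 38, 38 and 32 reads in WT at day 6, no peak at day 0 in either genotype, and a peak in 1 DKO library of day 9. The member chr9:72797150-72797721, 9.49 kb from the start of Prtg, had 32, 37 and 31 reads and was called in 2, 2 and 3 DKO libraries at days 0, 3 and 9. Of the remaining strong members, those in introns of Creb3l1 (35, 30 and 32 reads), Usp42 (33, 27 and 33) and St3gal2 (32, 25 and 27) and that 3.70 kb from the start of Cacnb3 (39, 25 and 35) were each called in 3 of 3 DKO libraries at both days 0 and 9. Of the 10 strongest members, 7 had a DKO peak at day 0 and 8 at day 9, and the other 2, at Hmgn2 and on chromosome 11, had none in any DKO library.

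Besides the pair at Hmgn2 and the region near Galnt9, 4 members had a peak in every WT library and in none of DKO. They were chr11:56288968-56290729 (36, 46 and 38 reads at WT day 6), which is 250 kb from the nearest coding start, that of Nmur2, chr14:50903737-50904679 near Klhl33 (27, 23 and 29), chr11:55768439-55770220 near Glra1 (13, 24 and 20) and chr5:74904783-74905920 near Chic2 (19, 14 and 13). These 7 regions had p = 0.00025 in the exact test over days 0, 3 and 9, two-sided, and an adjusted p of 0.999.

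By genes, 2646 of 15914 protein-coding genes with a merged region (16.6%) held a member between 5 kb upstream of their start and their end. Of these, 1832 held 1 member and 128 held 5 or more. Genes with a member were long, with a median of 71.2 kb against 24 kb for genes with a merged region, and the counts per gene were not scaled by length. Of all members 4178 (56.7%) lay in such a span, and they were 14.2% of the 29458 regions in those spans that were called in 3 of 3 WT day 6 libraries.

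The member counts of single genes depended on the length of the lists. The 59 genes chosen for description held 324 members summed over genes, and with 40000 peaks per library they held 42, with 26 genes holding any. With −log10 q of at least 5 they held 247. Foxp1, which encodes a forkhead transcription factor, held 18 members among its 43 regions called in 3 of 3 WT day 6 libraries. At day 3 the WT libraries called 16, 15 and 7 of the 18 and the DKO libraries 6, 11 and 9. At day 9 they called 14, 15 and 15 in WT and 15, 12 and 13 in DKO. The genotypes overlapped at day 3 through the shallow WT library. Foxp1 held 10 members with −log10 q of at least 5 and 0 with 40000 peaks per library.

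Bmper, which encodes a secreted regulator of BMP signalling, held 17 members among 43 such regions. On day 0 the WT libraries called 4, 3 and 3 of them and the DKO libraries 3, 3 and 2. On day 3 the counts were 10, 8 and 5 in WT and 2, 4 and 2 in DKO, and on day 9 they were 4, 6 and 6 in WT and 8 in each DKO library. All WT libraries were above all DKO libraries at day 3, and all DKO libraries above all WT libraries at day 9. Over all merged regions the mean share called was 27.5% in WT and 21.5% in DKO at day 3, with overlapping groups. At day 9 it was 34.4% and 39.7%, without overlap. Bmper held 11 members with −log10 q of at least 5, 10 with summit windows and 1 with 40000 peaks per library.

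**Figure D5:**
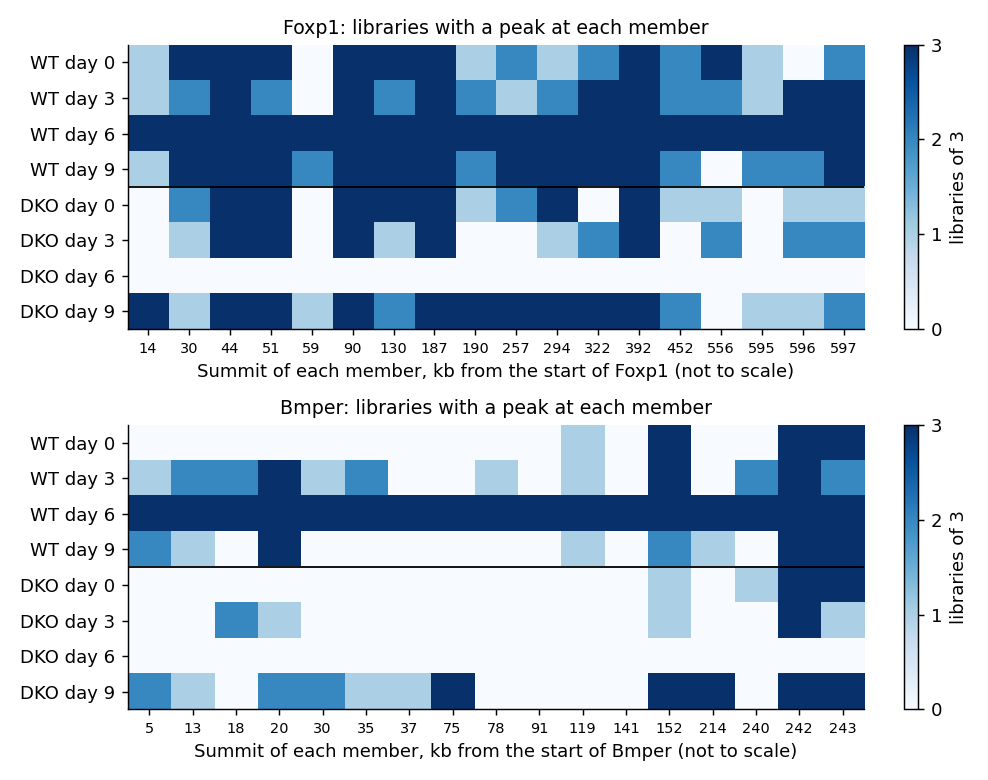
Number of libraries (of 3) with a peak at each member of Foxp1 (18 members) and Bmper (17), by group, ordered by distance of the summit from the gene's start in kb. The rows of WT day 6 (all 3) and DKO day 6 (0) are fixed by the rule; at Bmper most members have no peak at day 0 in either genotype.

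Rad51b, which acts in homologous recombination, held 17 members, of which DKO called 7, 9 and 7 at day 3 and 13, 11 and 10 at day 9. WT called 14, 16 and 7 of them at day 3 and 11, 13 and 9 at day 9. Csgalnact1, an enzyme of chondroitin sulfate synthesis, held 15, and here DKO stayed lower, with 5, 7 and 5 at day 9 against 7, 9 and 13 in WT, which touch at 7. The axon guidance ligand gene Slit3 held 14 of 67 regions, and Rbms3 and the nuclear receptor gene Rora held 13 each. Pappa, which encodes a protease that frees IGF from its binding proteins, held 12 of its 19 regions (63.2%). Fgfr2, an FGF receptor gene, held 13 and the predicted gene Gm20388 held 41, but their annotated models span 2961 kb and 4435 kb and cover other genes.

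Genes of the extracellular matrix held many members. Of 33 collagens and matrix proteins, 19 (57.6%) held one, beside 16.6% of all genes, and their 59 members were 24.6% of the regions in these genes called in 3 of 3 WT day 6 libraries, beside 14.2%. At day 3 the WT libraries called 41, 39 and 22 of the 59 and the DKO libraries 15, 30 and 16. At day 9 the counts were 37, 38 and 39 in WT and 39, 31 and 36 in DKO. Col5a2, a chain of fibrillar collagen V, held 12 of 26 regions, Fbn1 (fibrillin of microfibrils) 9 of 39, Col5a1 5 of 13 and Col4a1, a chain of basement membrane collagen, 5 of 22. With 40000 peaks per library Col5a2 held 0 members, Fbn1 4 and Col5a1 1, Fbn1 held 2 with summit windows, and Col5a1 held 1 with −log10 q of at least 5. At Col4a1 the members were called in 0 of 6 libraries of day 0, in 3, 1 and 1 cases at WT day 3 and 0 at DKO day 3.

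Of 15 matrix proteases and inhibitors with a region, 7 (46.7%) held a member, beside 16.6% of all genes. Their 25 members were 23.1% of their 108 regions called in 3 of 3 WT day 6 libraries, beside 14.2%. Adamts12 held 9 of 33 regions and Mmp2, a gelatinase gene, 5 of 11. At Mmp2 the DKO libraries called 3, 2 and 4 of the 5 at day 3, and the WT libraries 3, 4 and 2. At day 9 DKO called 0, 1 and 0, and WT 1, 2 and 1. Mmp3, which encodes stromelysin, held 3 of 4 regions, including 1 upstream of its start with the summit within 1 kb of it. Adamts5, an aggrecanase gene that the study also names among white adipocyte genes, held 4 of 6. At day 3, 4, 2 and 1 were called in WT and 0 in each DKO library. At day 9 the counts were 3, 4 and 2 in WT and 4, 3 and 3 in DKO.

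Preadipocyte and stromal markers held members in 5 of 20 genes (25%), beside 16.6% of all genes. Their 12 members were 23.1% of their 52 regions called in 3 of 3 WT day 6 libraries, beside 14.2%. Dpp4, a marker of early stromal progenitors, held 4, which were all of its regions called in 3 of 3 WT day 6 libraries. On day 0 each library of either genotype called 2 of these. On day 3 the DKO libraries called 0, 2 and 1 and the WT libraries 1, 4 and 0. On day 9 the counts were 2, 3 and 3 in DKO and 3, 4 and 4 in WT. Gsn held 3 of 7, and Pdgfra and Cd9 held 2 each. Among receptors of the TGF-beta and BMP pathway, Acvr1 held 5 of 15, Tgfbr2 4 of 12 and Tgfbr3 3 of 27, and the signal carrier Smad3 held 3 of 14. In all 8 of 20 genes of that pathway (40%) held a member, beside 16.6% of all genes. Their 21 members were 16.2% of their 130 regions called in 3 of 3 WT day 6 libraries, beside 14.2%.

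In the Wnt pathway 12 of 27 genes (44.4%) held a member, led by the coreceptor gene Lrp6 with 4 and the secreted antagonist gene Dkk3 with 3 of 4 regions, followed by the nuclear factors Tcf7l2 and Tcf7l1 with 2 each. At Lrp6 the WT libraries called none of the 4 at days 0 and 9, and DKO called 2, 4 and 3 at day 9. In the Hippo pathway 6 of 18 genes (33.3%) held one, with 5 in Tead1, 3 in Amotl1 and 2 in each of the kinase genes Stk3 and Lats2. The 14 members of that pathway were called at day 3 in 8, 7 and 4 cases in WT and 1, 4 and 2 in DKO, and at day 9 in 7, 8 and 7 against 12, 10 and 9. Over all merged regions WT also called more on average at day 3, 27.5% against 21.5%, with overlapping groups. DKO called more of them at day 9, 39.7% against 34.4%, without overlap. Of 17 contractile genes 3 (17.6%) held one, beside 16.6% of all genes, with 4 in Cald1 and 1 each in Tagln and Lmod1. These members were 13.0% of 46 such regions, beside 14.2%. None of the 14 AP-1 and related genes held a member in its span, beside 16.6% of all genes, and these spans had only 17 such regions. By the nearest start within 50 kb, 2 of the 14 held a member, 3 members in all.

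Adipocyte lipid and hormone genes held few members. Of 23 adipocyte lipid and hormone genes 2 (8.70%) held 1 member each, beside 16.6% of all genes. They were Acaca, for the enzyme that makes malonyl-CoA, and Insr, the insulin receptor gene. Their 2 members were 2.70% of the regions in the 23 genes called in 3 of 3 WT day 6 libraries, beside 14.2%. Adipogenic transcription factors held members in 6 of 19 genes (31.6%), beside 16.6% of all genes. But their 20 members were 10.8% of the 185 regions of these genes called in 3 of 3 WT day 6 libraries, beside 14.2%. Ebf1 held 9 of 62 regions, Ebf2 5 of 17, Zbtb16 3 of 37 and Gata2 1. The 5 members of Ebf2 were called in 1, 1 and 1 cases at DKO day 3 and in 3, 3 and 1 at WT day 3. At day 9 each DKO library called all 5, and the WT libraries called 4, 5 and 3. The 3 of Zbtb16 were called in no library of day 0, in 0 at DKO day 3 and in 3, 3 and 2 at DKO day 9. WT called 1, 1 and 0 of them at day 3 and 1, 3 and 2 at day 9.

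Of 21 brown and beige adipocyte genes 5 (23.8%) held 1 member each, beside 16.6% of all genes. Acot11, Cidea, Tbx1 and Esrra were among them. These 5 members were 16.1% of 31 regions called in 3 of 3 WT day 6 libraries, beside 14.2%. The member of Acot11 was called in 9 of 9 WT libraries of the other days, and in DKO in 2, 0 and 3 libraries at days 0, 3 and 9. Of the white adipocyte genes that the study names, Galnt9 held 6 of 7 regions and Adamts5 4 of 6, while Slc6a6 and Pnp2 held none. With 40000 peaks per library Galnt9 held 3, Adamts5 0 and Pnp2 1. These 4 genes were chosen by the study on these cells and are not independent evidence of a direction. Of the 6 at Galnt9, WT called 4, 4 and 5 on day 0 and DKO 0, 0 and 2. On day 3 the counts were 5, 5 and 4 in WT and 1, 1 and 0 in DKO, and on day 9 they were 5, 6 and 6 in WT and 2, 2 and 3 in DKO. All WT libraries were above all DKO libraries at each of these days. Over all merged regions the groups overlapped at days 0 and 3, and all DKO libraries were higher at day 9.

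Chemokine and cytokine genes held members in 5 of 16 (31.2%). Il1rl1, the receptor gene for IL-33, held 3, all of its regions called in 3 of 3 WT day 6 libraries. Each library of either genotype called all 3 at day 0. The eosinophil chemokine gene Ccl11 held 3 of 6, called in no library of day 3, in 1 WT library of day 9 (1 of 3) and in 0, 1 and 1 cases at DKO day 0. Cxcl5 and Il33 held 1 each. Of marker genes of other cells, 0 of 9 immune and 0 of 4 Schwann cell genes held a member, beside 16.6% of all genes. Of 6 endothelial genes 2 did (Tek with 2 and Emcn with 1), and of 6 mesothelial and epithelial genes 1 did (Wt1). In that order these lists had only 8, 2, 7 and 3 regions called in 3 of 3 WT day 6 libraries.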

How the data were processed

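H3K27ac was measured by ChIP-seq. The submitters' processing notes name bcl2fastq 2.17, cutadapt 1.18, BWA 07.17, MACS2 2.1.1.20160309 and the mm10 build, and the authors deposited one peak list per library. The deposited lists give each peak's position, its fold enrichment at the summit (a ratio) and the −log10 of its p-value and q-value. MACS2 settings and control pairs are not given in the sources used here, and the 16 inputs were not analysed. The number of reads at a summit was recovered from fold and p, and came out whole (within 0.05) for 99.96% to 100% of the peaks of each list.

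Peaks were merged across libraries with Python 3.11.15. Per-library percentages are given with SD and no p, since the members were chosen with earlier results of these data known, as were the gene lists. The exact conditional test was checked on simulated data. Named were Hmgn1, Hmgn2, the 10 genes with the most members, up to 4 genes per list, the 10 strongest members, and members with a peak in every WT and no DKO library. Alternatives were other peak cutoffs, summit windows and left-out libraries.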

Additional observations from a re-analysis of the deposited data

Results flagged for a closer look

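The members of Bmper pointed in opposite directions at days 3 and 9. At day 3 the 3 WT libraries called 5.0 more of the 17 members than the DKO libraries on average, and every WT library was higher. At day 9 the mean of WT minus that of DKO was -2.67, and every DKO library was higher. With 40000 peaks per library Bmper held 1 member in place of 17, so the counts rest on peaks that shorter lists do not hold. The difference between the days was not tested, and no other gene named here had such a turn.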

How the results depend on the processing

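The calls at day 6 rest on lists of unequal length. The members numbered 6163 with −log10 q of at least 5, 6727 with 250 bp windows around summits, 7272 with 1 p limit in all lists (an alternative chosen after seeing the data, as were leaving out single day 6 libraries, the limit to strong members, the split by starts and the counts per genotype without a library) and 7705 with day 9 only regions kept. They numbered 1360 with 40000 peaks per library and 551 with 20000. Leaving out 1 library or replicate number gave 7614 to 13664, with 13008 without replicate 1 and 13664 without replicate 2, where only 2 WT and 2 DKO calls were needed. The difference of WT minus DKO calls of members at day 9 turned from -1.54 percentage points to 8.77 with 40000 peaks per library and 13.7 with 20000, and that at day 0 from 3.94 to -2.48 with 20000. Leaving out each replicate number gave -7.28 to 2.88 at day 9, where the members were chosen anew from 2 libraries of each group. At day 3 the difference stayed between 12.1 and 33.7 under the alternatives run. For members with a lowest −log10 q of at least 10, the day 0 difference was 8.81. The cause of these changes was not tested beyond the settings' own construction.

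The share within 1 kb of a start was 11% with −log10 q of at least 5 and 14.4% with 40000 peaks per library. By overlap with a start it was 6.55%, and within 5 kb 30.5%. The AP-1 ratio of members to held regions was 1.19 away from starts, and the TEAD ratio turned from 1.09 to 0.98. Linking regions to the nearest start within 50 kb, 37.6% of list genes held a member, against 30.5%. The labels do not say whether samples with the same replicate number were paired. Their deviations from the group means correlated between -0.0411 and 0.0682 over 12 pairs, and those of other numbers between -0.118 and 0.0918. These values cannot show whether such samples shared a culture or batch. With the replicate block, in which genotype was exchanged within replicate numbers, 0 regions passed in either direction and 223 (WT) and 87 (DKO) had an unadjusted p under 0.05, against 659 and 302. The other alternatives run also gave 0 after adjustment.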
